A study of Mus musculus with 8 samples.

Results

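Lung and trachea of the FVB/N mouse embryo at E11.5 (E marks days of embryonic development) were compared by 1 oligonucleotide array each, 2 of the 8 samples of the study. The pair was taken by tissue label alone, and no measured value entered the choice. The labels name no transgene or treatment for either tissue and do not say how many embryos were combined or where the dissection cut lay. With 1 array per tissue every ratio describes 2 samples, and no test between the tissues was possible. The other 6 samples were E18.5 FVB/N lungs on a newer array type, 3 from single transgenic controls and 3 from bitransgenic embryos that overexpress MIA. SP-C, which the labels of both E18.5 groups name with MIA, is the surfactant protein made by distal lung epithelium and encoded by Sftpc. The labels do not say which transgene the controls carried. The E18.5 lungs serve here to show how far replicate arrays of one kind of lung lie apart, and how genes that differed at E11.5 behaved when MIA was overexpressed.

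At this stage the lung buds have begun to branch from the ventral foregut, and the trachea is a short epithelial tube that is being wrapped in mesenchyme. The epithelium of both arises from one endodermal field, in which Sox2 marks the proximal airway and a distal tip program that includes Sftpc marks the future alveoli. The surrounding mesenchyme differs along the tube: distal mesenchyme supplies branching signals, and tracheal mesenchyme goes on to form cartilage rings and smooth muscle. Mia encodes a small protein that melanoma cells and chondrocytes release.

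Signals are linear intensities, and a ratio is given as log2 of lung over trachea after 84.3, the 20th percentile of the table, was added to each signal, so that a positive value means a higher signal in lung. The added value draws ratios of dim probe sets towards 0. A gene was represented by 1 probe set, and was compared when the higher of its 2 signals exceeded 543, the median of the table. A gene with only 1 signal above 543 was therefore compared through the tissue where it was higher. Of 8251 genes, 5121 were compared. Signals rank samples for one probe set and do not rank genes, since probe sets differ in brightness. In whole tissue, fewer cells of a type and less RNA per cell cannot be told apart.

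The 4 genes given as markers of the comparison lay on the sides they mark. Mia, at chromosome 7 from 27179741 to 27181149 (GRCm38.p6), gave 1048 in lung and 81.4 in trachea, the highest ratio of all genes compared (2.77). Sftpc, at chromosome 14 from 70520941 to 70524081, gave 1503 in lung and 257 in trachea (2.22). Six2, a homeobox gene of head and foregut mesenchyme at chromosome 17 from 85662736 to 85688254, gave 233 in lung and 4345 in trachea, the lowest ratio of all (-3.80). Sox2, at chromosome 3 from 34649995 to 34652461, gave 1016 in lung and 4260 in trachea (-1.98). The trachea array was therefore near the dim end of the table for Mia, whereas the lung array kept a clear Sox2 signal. Among probe sets with 1 gene symbol, none was for Nkx2-1, Sox9, Tbx4, Tbx5 or Wnt2, the usual regulators of lung identity and branching. Probe sets with several symbols or none were not searched for them. Fgf10 stayed below the median in both tissues (64.3 in lung and 23.1 in trachea).

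The 250 bases before the annotated start are shown for 3 of the 4 markers, Mia, Six2 and Sox2, and for Twist1, a trachea-sided factor whose window holds a TATAAA. Sequences are from RefSeq (GRCm38.p6), 5′ to 3′ on the strand of the gene, with every CpG and every TATAAA in capitals. The windows are chr7:27181150-27181399 on the minus strand for Mia, chr17:85688255-85688504 on the minus strand for Six2, chr3:34649745-34649994 on the plus strand for Sox2 and chr12:33957421-33957670 on the plus strand for Twist1.
Mia: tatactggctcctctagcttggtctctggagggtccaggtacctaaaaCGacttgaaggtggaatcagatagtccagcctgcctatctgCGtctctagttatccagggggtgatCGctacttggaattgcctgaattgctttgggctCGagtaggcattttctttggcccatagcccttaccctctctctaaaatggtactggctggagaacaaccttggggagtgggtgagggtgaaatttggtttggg
Six2: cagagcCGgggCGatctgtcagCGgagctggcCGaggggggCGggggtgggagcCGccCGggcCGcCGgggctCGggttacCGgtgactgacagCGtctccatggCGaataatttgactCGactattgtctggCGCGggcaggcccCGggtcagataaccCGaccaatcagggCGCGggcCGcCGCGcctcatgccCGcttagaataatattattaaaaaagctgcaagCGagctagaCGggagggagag
Sox2: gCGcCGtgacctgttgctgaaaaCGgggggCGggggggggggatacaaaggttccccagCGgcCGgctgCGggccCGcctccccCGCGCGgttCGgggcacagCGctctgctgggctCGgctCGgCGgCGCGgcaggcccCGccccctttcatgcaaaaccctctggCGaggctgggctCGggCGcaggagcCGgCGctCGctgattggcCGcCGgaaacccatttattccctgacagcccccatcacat
Twist1: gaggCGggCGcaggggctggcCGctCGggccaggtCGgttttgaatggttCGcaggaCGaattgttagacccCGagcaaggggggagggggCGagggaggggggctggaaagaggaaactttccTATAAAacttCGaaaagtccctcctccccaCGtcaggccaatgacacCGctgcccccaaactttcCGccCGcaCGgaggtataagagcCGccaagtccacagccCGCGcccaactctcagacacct
The Mia window holds 4 CpG at 50.4% GC. The transcription factor genes have 26 (Six2, 64.8% GC), 27 (Sox2, 72% GC) and 18 (Twist1, 62.4% GC), and Twist1 has a TATAAA that begins 126 bases before its start.

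A window was found for 40 of the 62 genes over 2-fold higher in lung and 88 of the 120 over 2-fold higher in trachea. At least 10 CpG stood in 60% of the lung windows and 69.3% of the trachea windows, against 79% for all compared genes with a window and 38.2% of the 27025 windows in the table. TATAAA on either strand was found in 15% and 13.6%, against 6.34% for compared genes and 13% for the whole table. The other motifs were searched on both strands. CTCAAG, a core of NKX2 sites, was in 12.5% of lung and 10.2% of trachea windows (12.5% for compared genes, 13.6% for the table). TAATTA, a homeodomain core, was in 2.5% and 2.27% (1.87% and 4.9%). TGTTTAC, a forkhead core, was in 0% and 1.14% (1.92% and 3.09%). CATTGT, a SOX core, was in 10% and 2.27% (5.66% and 11%), the former from 4 lung genes. These matches describe letters in a window and do not show binding.

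Most genes were close to even between lung and trachea. The median log2 ratio was -0.01, the 5th and 95th percentiles were -0.75 and 0.61, and 2521 of the 5121 genes (49.2%) were higher in lung. A ratio over 2-fold was found for 182 genes (3.55%). Of these, 62 (1.21%) were higher in lung and 120 (2.34%) were higher in trachea, so that 34.1% of them lay on the lung side. Ratios over 3-fold were found for 58 genes (1.13%) and over 4-fold for 27 (0.527%), 7 of them higher in lung and 20 higher in trachea. Both signals were above the median for 73 of the 182, 21 higher in lung and 52 in trachea, and the other genes were dim in one tissue.

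The split depends on the scale. All 9 spike control probe sets were brighter on the trachea array, with a median log2 ratio of -0.35 (from -0.72 to -0.11). They read labelled transcripts added at hybridization (BioB, BioC, BioDn and CreX), and so do not measure the RNA content of the tissues. Scaling to these controls moved the median of all genes by 0.35. It gave 221 genes over 2-fold higher in lung and 64 in trachea (77.5% on the lung side). All ratios below keep the deposited scale, on which both arrays have a trimmed mean of 1501, and small ratios of either sign are relative to that scale.

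**Figure D1:**
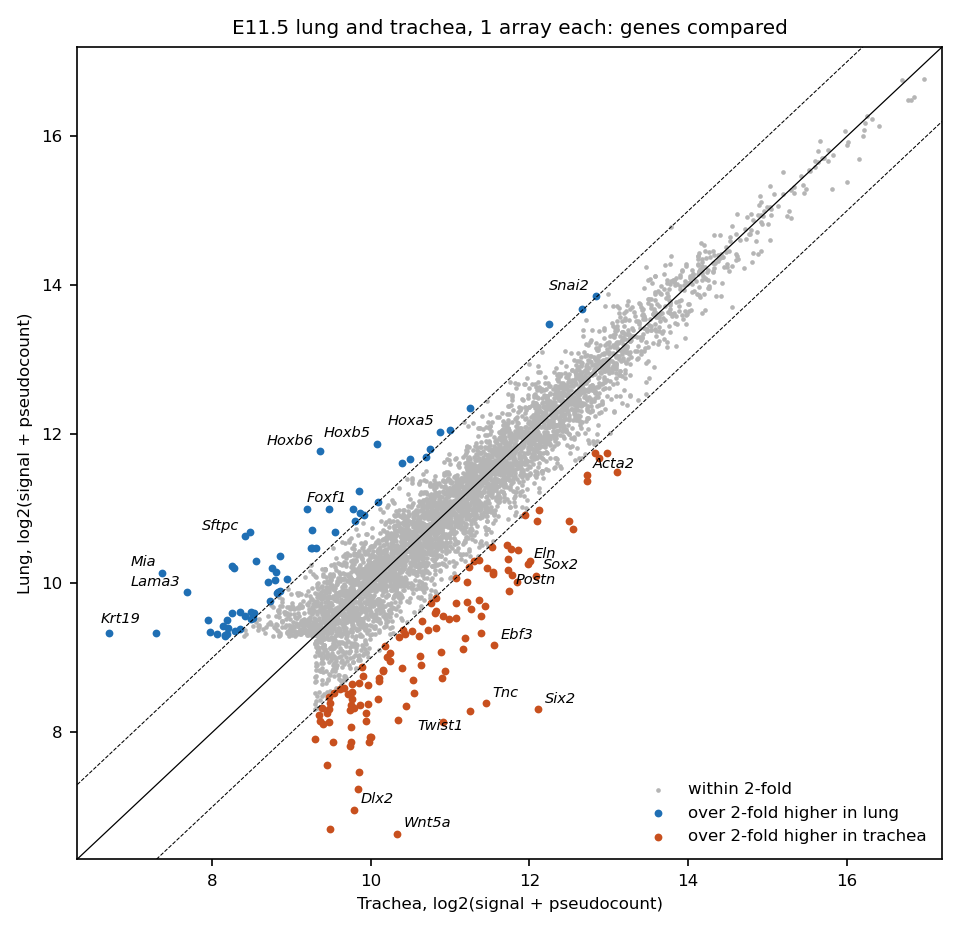
Each point is 1 of the 5121 compared genes, with log2 of the trachea signal plus 84.3 on the horizontal axis and the same for lung on the vertical axis. The solid line marks equal signals and the dashed lines 2-fold. The 62 blue genes lie above the upper dashed line and the 120 orange genes below the lower one, with Six2 and Wnt5a farthest on the trachea side.

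No E11.5 replicate exists, so the scatter of pairs of same-group E18.5 lungs was used as the nearest measured yardstick, over genes on both array types and with the same rule. In the 6 such pairs between 0.253% and 3.02% of genes were over 2-fold apart, between 0.0633% and 0.209% over 3-fold, and between 0.0419% and 0.126% over 4-fold. The E11.5 share over 2-fold (3.55%) was thus close to the widest of those pairs, whereas the shares over 3-fold and 4-fold (1.13% and 0.527%) were above every one of them. The array type and the age differed between the stages, so the yardstick is not a test. Of 749 genes with another compared probe set, the log2 ratios of the pair differed by a median of 0.28. Among the genes over 2-fold apart, 17 had a second compared probe set, of which 16 had the same sign and 9 were also over 2-fold. As a measure of RNA integrity, the 3′ to 5′ ratio was 1.41 in lung and 1.48 in trachea for Actb, and 0.818 and 0.949 for Gapdh.

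Distal lung epithelium genes leaned towards lung. Of 16 measured members 15 were compared, 3 were over 2-fold higher in lung and none in trachea (background 1.21% and 2.34%), 13 were positive, and the median was 0.41 against -0.01 for all genes. The same background applies to the list counts below. Mia and Sftpc were given as markers of the comparison, so their place in the count is no separate support. The third was Lama3, a laminin chain of epithelial basement membrane (859 in lung and 121 in trachea, 2.20). All 3 were below 543 in trachea, and so were compared through their lung signal alone. Foxa1, a forkhead factor of foregut endoderm, gave 2752 and 1527 (0.82). Wnt7b, a ligand of the airway epithelium, gave 651 and 301 (0.93). Shh, which signals from epithelium to mesenchyme, was within 2-fold (1914 and 1421, 0.41). So were Bmp4, a growth factor of bud tips (2994 and 2356, 0.34), and the endodermal factor Foxa2 (3030 and 2954, 0.04). The negative members were Id2, an inhibitor of basic helix-loop-helix factors marked in distal tips (7052 and 9744, -0.46), and the Fgf receptor Fgfr2 (7819 and 9736, -0.31). The lean was thus carried by a small number of large ratios over a broad shift that stayed within 2-fold.

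Genes shared by all epithelia showed a shift of similar size. Of 26 measured pan-epithelial genes 17 were compared, 12 were positive, and the median was 0.34. One was over 2-fold, Krt19, a keratin of simple epithelium and mesothelium (561 in lung and 19.4 in trachea, 2.64; the second probe set was dim in both tissues, 30 and 12.5). Cdh1, the adhesion molecule E-cadherin, gave 1805 and 1407 (0.34). The keratins Krt18 (0.64) and Krt7 (0.81) and the tight junction genes Cldn4 (0.78) and Cldn6 (0.88) were also on the lung side. Itga6, an integrin chain of the epithelial base, was on the trachea side (460 and 819, -0.73). So were Ddr1 (-0.42), Esrp1 (-0.42), Prom1 (-0.29) and Jup (-0.25). Epcam, below 543 in both tissues, was close to even (287 and 323, -0.14). Summed over measured members, the signal was 52424 in lung and 46978 in trachea, of which Cd24a alone gave 24567 and 23440. Such sums, here and below, are weighted to the brightest probe sets and include members under the threshold. The part that epithelial content has in the distal list was not tested.

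The proximal airway list split. Of 17 measured members 7 were compared, with a median of 0.02. Sox2 was over 2-fold higher in trachea and Aldh1a7, an aldehyde dehydrogenase, over 2-fold higher in lung (642 and 163, 1.55). Foxj1, the master factor of ciliated cells, gave 597 and 326 (0.73), and Muc1, a membrane mucin, 672 and 1089 (-0.63). The basal cell keratins Krt5 (76.3 and 106) and Krt14 (26.6 and 16.7) were dim in both tissues, and the club cell gene Scgb1a1 was below the median in both (327 and 303). On the side of Sox2 lay Klf4 (375 and 552, -0.47) and, under the threshold of 543 in both tissues, Klf5, a zinc finger factor of airway epithelium (88.5 and 526, -1.82), and the club cell gene Cyp2f2 (252 and 434, -0.62). Opposite to Sox2 lay Krt17 (643 and 479, 0.37) and, under that threshold, Trp63 (345 and 140, 0.94). Among the other Sox genes, none of the 9 compared exceeded 2-fold, and their ratios ran from -0.51 for the neural crest factor Sox10 to 0.27 for Sox3. The Sox2 value rests on 1 probe set of a class that Affymetrix marks as chosen with relaxed design rules.

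Mesenchymal regulators separated the tissues more strongly, and in both directions. Of 20 measured lung bud mesenchyme genes 15 were compared, with a median of 0.32. Of these, 6 were over 2-fold higher in lung and 2 in trachea (background 1.21% and 2.34%). Foxf1, a forkhead target of Hedgehog signalling in foregut mesenchyme, gave 1969 in lung and 793 in trachea (1.23). Zfpm2, a partner of GATA factors, gave 1343 and 529 (1.22), and Hlx, a homeobox gene of visceral mesenchyme, 1344 and 549 (1.17). The other 3 were the Hox genes Hoxa5, Hoxb5 and Hoxb6. Against the list name, Tcf21, a basic helix-loop-helix factor of lung mesenchyme, was lower in lung (3344 and 6562, -0.96), as were the homeobox cofactor Meis2 (487 and 1075, -1.02) and Wnt5a (15.5 and 1207, -3.69). Wnt5a, a ligand that shapes tube length and cartilage, had the second lowest ratio of all compared genes, and its lung signal was below the added 84.3. Zfpm2 was below 543 in trachea, and Wnt5a and Meis2 in lung, so each was compared through 1 tissue alone.

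Hox genes are ordered along the clusters in the order in which they act along the body, and the ratios increased from paralogue groups 2 and 3 through 4 to 5 and 6, but not outside that range. Of 31 measured genes 13 were compared, 4 over 2-fold higher in lung and none in trachea (background 1.21% and 2.34%). Genes of groups 2 and 3 were lower in lung: Hoxa2 gave 1159 and 2075 (-0.80), Hoxa3 407 and 629 (-0.54) and Hoxb3 429 and 585 (-0.38). Group 4 was close to even, with Hoxa4 at -0.13 (2911 and 3202) and Hoxb4 at 0.08 (911 and 855). The 4 genes over 2-fold were all of groups 5 and 6. Hoxa5, which is required for normal trachea and lung form, gave 4120 and 1794 (1.16). Hoxb5 gave 3675 and 996 (1.80), Hoxc5 gave 852 and 367 (1.05) and Hoxb6 gave 3425 and 571 (2.42). Hoxa6 read 509 and 86.8 and missed the threshold of 543, and its second probe set was even (0.16). Groups 7 and 8 broke the order, with small ratios for Hoxb7 (0.15) and Hoxb8 (0.01) and a larger one for Hoxd8 (554 and 259, 0.90; a dim second probe set -0.40). Group 1 broke it too, with Hoxb1 on the lung side (631 and 292, 0.93). Hoxc5, Hoxd8 and Hoxb1 were compared through their lung signal alone, and Hoxa3 and Hoxb3 through their trachea signal alone. Scaling to the spike controls would add 0.35 to each ratio, which turns the sign of Hoxa4.

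**Figure D2:**
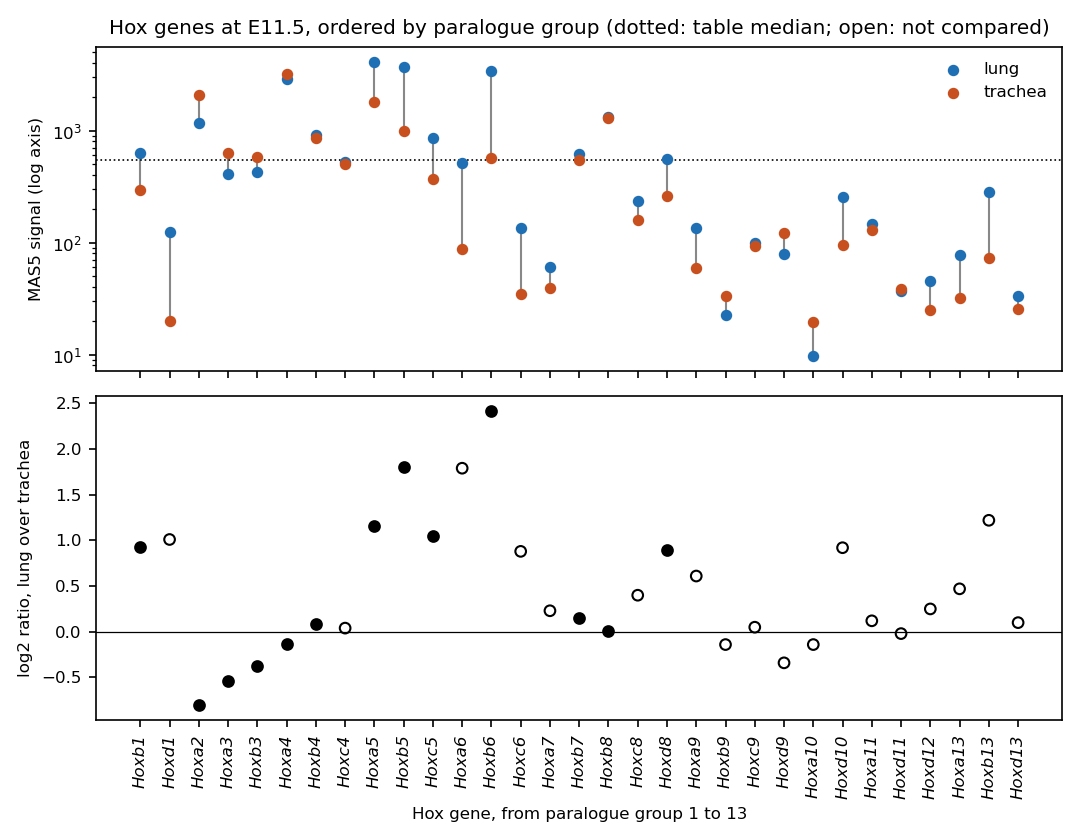
Measured Hox genes in order of paralogue group on the horizontal axis. Above, the lung (blue) and trachea (orange) signals on a log axis with a dotted line at 543. Below, the log2 ratio of lung over trachea, with filled points for compared genes and open points for genes whose signals both stayed at or below 543. Filled points of groups 2 and 3 lie below 0, those of group 4 near 0 and those of groups 5 and 6 between 1.05 and 2.42.

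Of the 20 largest lung ratios, several belong to no list of lung identity. Adh1, an alcohol dehydrogenase that can oxidise retinol, gave 1564 in lung and 271 in trachea (2.21). Ada, adenosine deaminase, gave 1125 and 221 (1.98), but its other probe sets were even (0.14 and 0.06). Cebpb, a leucine zipper factor of metabolic and acute phase genes, gave 1957 and 503 (1.80). Sema3a, a secreted guidance molecule for axons and vessels, gave 1174 and 291 (1.75). Fmod, a small collagen-binding proteoglycan, gave 1103 and 349 (1.45), but a second probe set was dim in both tissues (27.1 and 37.1, -0.12) and the mean of both was 0.67. Plac8 gave 2341 and 836 (1.40). Hcrt, known as a hypothalamic neuropeptide precursor, gave 563 and 73 (2.04), and its lung signal was only just above the median of the table. Adam3 (1.51), Tyms-ps (1.46), an immunoglobulin kappa variable segment (1.93), Acot8 (1.37) and Mapkbp1 (1.36) completed the 20. The first 3 of these were read from probe sets of relaxed design, their other probe sets lay between -0.07 and 0.48, and Tyms-ps is a pseudogene that shares sequence with Tyms.

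On the trachea side the list with the most genes over 2-fold held transcription factors of pharyngeal and neural crest derived mesenchyme. Of 42 measured members 19 were compared, 15 were negative, and the median was -0.93. Over 2-fold higher in trachea were 9 and in lung 1 (background 2.34% and 1.21%). Twist1, a basic helix-loop-helix factor of head mesenchyme, gave 228 in lung and 2353 in trachea (-2.97). The linked homeobox genes Dlx1 and Dlx2, which pattern the pharyngeal arches, gave 150 and 924 (-2.11) and 40.6 and 802 (-2.83). Ebf3 gave 494 and 2927 (-2.38), and its second probe set was farther apart (54.9 and 2156, -4.01). Isl1, a LIM homeobox gene of pharyngeal mesoderm, gut mesenchyme and motor neurons, gave 286 and 1404 (-2.01). The rest were Six2, Tfap2c (-1.89), the forkhead gene Foxc2 (721 and 2369, -1.61) and Hand1 (247 and 845, -1.49). All of these 9 except Foxc2 were below 543 in lung, and so were compared through their trachea signal alone. Six2 was also a given marker, and the list was chosen with earlier results known. The count and the median therefore describe these members and are no separate support.

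Several relatives of these genes were on the same side but within 2-fold, or below the median. Twist2 gave 3643 and 4820 (-0.40), Prrx2 gave 2647 and 3917 (-0.55) and Msx1 gave 720 and 914 (-0.31). Eya2 (60.1 and 536), Msx2 (41.8 and 333) and Hand2 (25.4 and 180) were brighter in trachea but stayed under the threshold of 543. Snai2, the zinc finger gene of neural crest migration, went the other way at a high signal, with 14752 in lung and 7219 in trachea (1.02). Eya1 (1215 and 1025, 0.23), Dlx3 (572 and 518, 0.12) and Snai1 (1900 and 1705, 0.15) were slightly higher in lung. So were, under the threshold, Tfap2a (388 and 248, 0.50), Barx1 (332 and 147, 0.85) and Meox2 (509 and 336, 0.50). No gene of the thyroid, parathyroid and thymus list passed the median in either tissue (8 measured, summed signal 765 in lung and 675 in trachea).

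**Figure D3:**
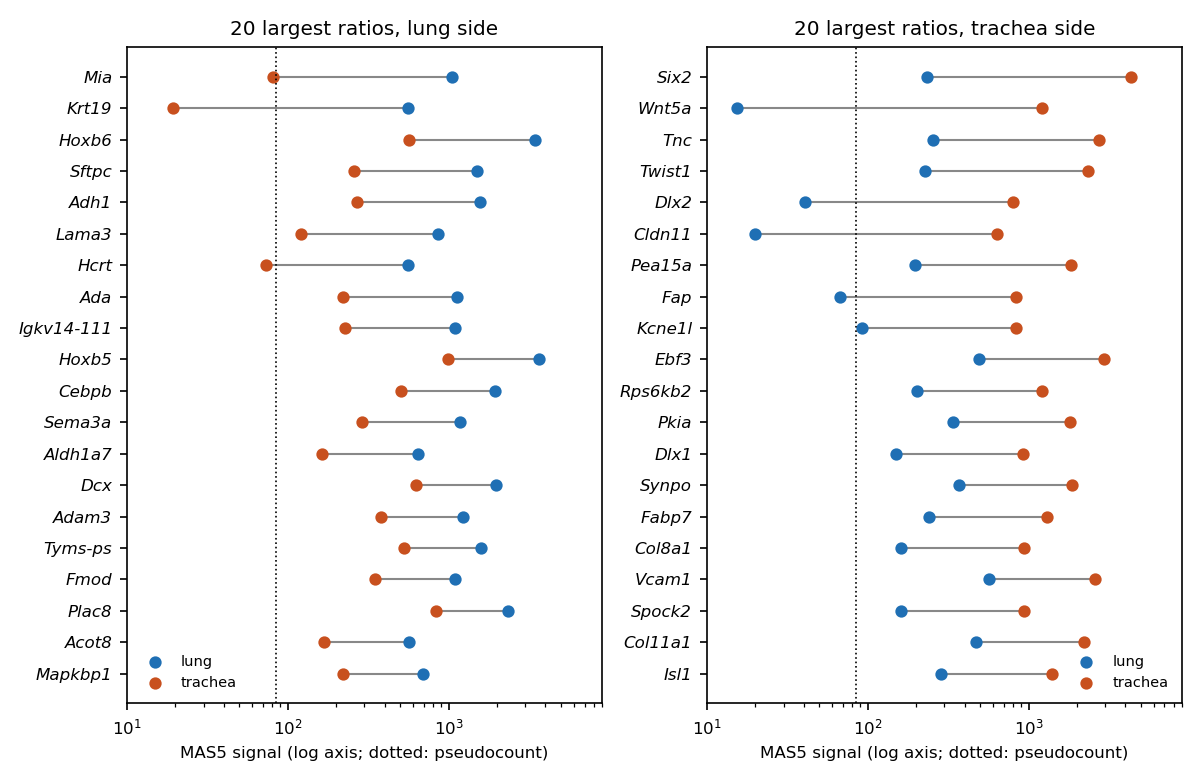
Signals on a log horizontal axis of the 20 genes with the largest ratio on each side, with lung in blue, trachea in orange and a line joining the pair; the dotted line marks the added 84.3. In trachea Mia, Krt19 and Hcrt lie left of it, and in lung Wnt5a, Dlx2, Cldn11 and Fap do, so their ratios depend most on that addition.

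Matrix genes of connective tissue that passed the threshold were mostly higher in trachea. In the matricellular and elastic fibre list 17 of 25 measured genes were compared, 14 were negative, and the median was -0.75. Over 2-fold higher in trachea were 7 and in lung none (background 2.34% and 1.21%). Tnc and Thbs2 were below 543 in lung, and so were compared through their trachea signal alone. Of the 8 members not compared, Tnxb was higher in trachea (61.7 and 247, -1.18). The others were higher in lung, Ccn5 by the most (197 and 46.1, 1.11). Tnc, the matrix glycoprotein tenascin C of tissue in motion, gave 253 in lung and 2724 in trachea (-3.06), and its second probe set gave 61.7 and 604 (-2.24). Postn, a matricellular protein of fibrous tissue, gave 874 and 3346 (-1.84). Eln, the core of elastic fibres, gave 1140 and 3950 (-1.72), with -1.77 from a dimmer probe set. Thbs2 (-1.66), Fbln2 (1053 and 2894, -1.39) and Mgp, an inhibitor of mineral deposition in cartilage (1308 and 3614, -1.41), also passed 2-fold. Mfap4 was the seventh (652 and 1944, -1.46), but its other probe set pointed to lung (275 and 54.2, 1.38). Fbln1 (0.18), Lox, the enzyme that cross-links collagen and elastin (0.28), and Sparcl1 (0.04) were the positive members.

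Collagens showed the same lean with smaller ratios. Of 20 compared genes 17 were negative and 3 were over 2-fold higher in trachea (background 2.34%), with a median of -0.54. Those 3 were Col8a1 (160 and 938, -2.06), Col11a1 (471 and 2206, -2.04) and Col9a3 (775 and 2280, -1.46; a dim second probe set 0.13, and -0.66 as the mean of both). The latter pair are minor fibril chains of cartilage. Col8a1 and Col11a1 were below 543 in lung, and so were compared through their trachea signal alone. The main fibrillar gene Col1a1 was even (7693 and 7830, -0.03) while its partner chain Col1a2 gave 9254 and 14588 (-0.65). The basement membrane chains Col4a1 (-0.55) and Col4a2 (-0.68) were also on the trachea side.

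Cartilage genes gave a mixed early picture. Of 19 measured genes 7 were compared with a median of -0.93, Col11a1 and Col9a3 being over 2-fold higher in trachea and Mia, which is also a cartilage gene, over 2-fold higher in lung. Scx, a factor of tendon progenitors, gave 1830 and 3709 (-0.99), and Col9a1 gave 1005 and 1988 (-0.93). Col2a1 (62.7 and 48.2) and Acan (36 and 34.6), the main products of mature cartilage, were below the added 84.3 in both tissues. A dim probe set does not show that the product is lacking: Rps20, a ribosomal protein gene that every cell uses, read 39.4 and 57.2.

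Contractile genes of smooth muscle were higher in trachea. Of 12 compared genes 9 were negative and 3 were over 2-fold higher in trachea (background 2.34%), with a median of -0.55. Acta2, smooth muscle actin, gave 2735 in lung and 6664 in trachea (-1.26). Tagln, an actin-binding protein, gave 1079 and 3313 (-1.55). Myh11, the myosin heavy chain that defines the lineage, gave 707 and 1729 (-1.20). Itga8, an integrin chain also found in smooth muscle, was over 2-fold higher in lung (641 and 208, 1.31) and was compared through its lung signal alone.

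Basement membrane and integrin genes did not lean to one side as a list (24 compared, 10 positive, median -0.09). Scaling to the spike controls turned the sign of that median. Over 2-fold higher in lung were 4 and in trachea 1 (background 1.21% and 2.34%). Lama3, Itga7 and Itga8 were below 543 in trachea and Itga4 in lung, so each was compared through its brighter tissue alone. The lung genes were Lama3, Lamc1, the common gamma chain of laminins (3490 and 1634, 1.06; a dim second probe set 0.20), Itga7 (969 and 360, 1.25; other probe sets 0.59 and 0.05) and Itga8. The trachea gene was Itga4, a fibronectin and VCAM1 receptor chain, at 397 and 1501 (-1.72) and -1.77 in a second probe set. Vcam1, its ligand on cells, was read as higher in trachea by 1 probe set (564 and 2603, -2.05) and not by 2 others (-0.19 and 0.30). Among small proteoglycans Dcn, which binds collagen, was higher in trachea (793 and 2557, -1.59), opposite to Fmod.

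Among signalling genes few ratios passed 2-fold. For Wnt ligands 5 of 16 measured genes were compared, and Wnt5a was the 1 gene over 2-fold. Ror1, a receptor for Wnt5a, was over 2-fold higher in lung (701 and 243, 1.26), whereas its relative Ror2 was closer to even (876 and 626, 0.44). Fzd7 (886 and 411, 0.97) and the secreted inhibitor Sfrp1 (1351 and 2545, -0.87) were the next largest among 20 compared receptors, inhibitors and effectors, whose median was 0.12.

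Hedgehog genes showed no ratio over 2-fold among 8 compared (median -0.39). The receptor and target Ptch1 was higher in lung (7222 and 4404, 0.70; a second probe set 1.02), in the same direction as Shh. The target Gli1 was even (1021 and 1044, -0.03). Gas1, a coreceptor, gave 5551 and 10442 (-0.90) and Gli2 gave 1064 and 1796 (-0.71).

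For Bmp and Tgfb genes 26 were compared with a median of -0.12, which turned positive on the spike scale. Bmpr2, a type II receptor, was over 2-fold higher in lung (588 and 241, 1.05) and Inhba, an activin subunit, over 2-fold higher in trachea (282 and 754, -1.19). Id1 (-0.83), Id2 (-0.46), Id3 (-0.51) and Id4 (-0.30), common targets of Bmp signalling, were all lower in lung, although the ligand Bmp4 was on the lung side. The ratio of Id4 is smaller than the shift between scales.

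All 9 compared Notch genes were negative, with a median of -0.26 that scaling to the spike controls turned positive. The target Hey1, a repressor, was the exception in size, at 954 in lung and 3598 in trachea (-1.83). The other target Hes1 was even (2137 and 2149, -0.01).

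For Fgf receptors and effectors 7 genes were compared, none over 2-fold, from -0.78 for the heparan sulphate enzyme Ext1 to 0.51 for Dusp6, a feedback target. In the retinoid list Adh1 and Aldh1a7 were over 2-fold higher in lung and Crabp1, a cytoplasmic carrier of retinoic acid, was over 2-fold higher in trachea (333 and 1402, -1.83). Aldh1a2, the main enzyme that makes retinoic acid in the embryo, was even (1778 and 1737, 0.03). Among guidance genes Sema3a was over 2-fold higher in lung, while its receptor chains Nrp1 (3367 and 8011, -1.23; a second probe set -0.93) and Plxna2 (236 and 796, -1.46) were over 2-fold higher in trachea.

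**Figure D4:**
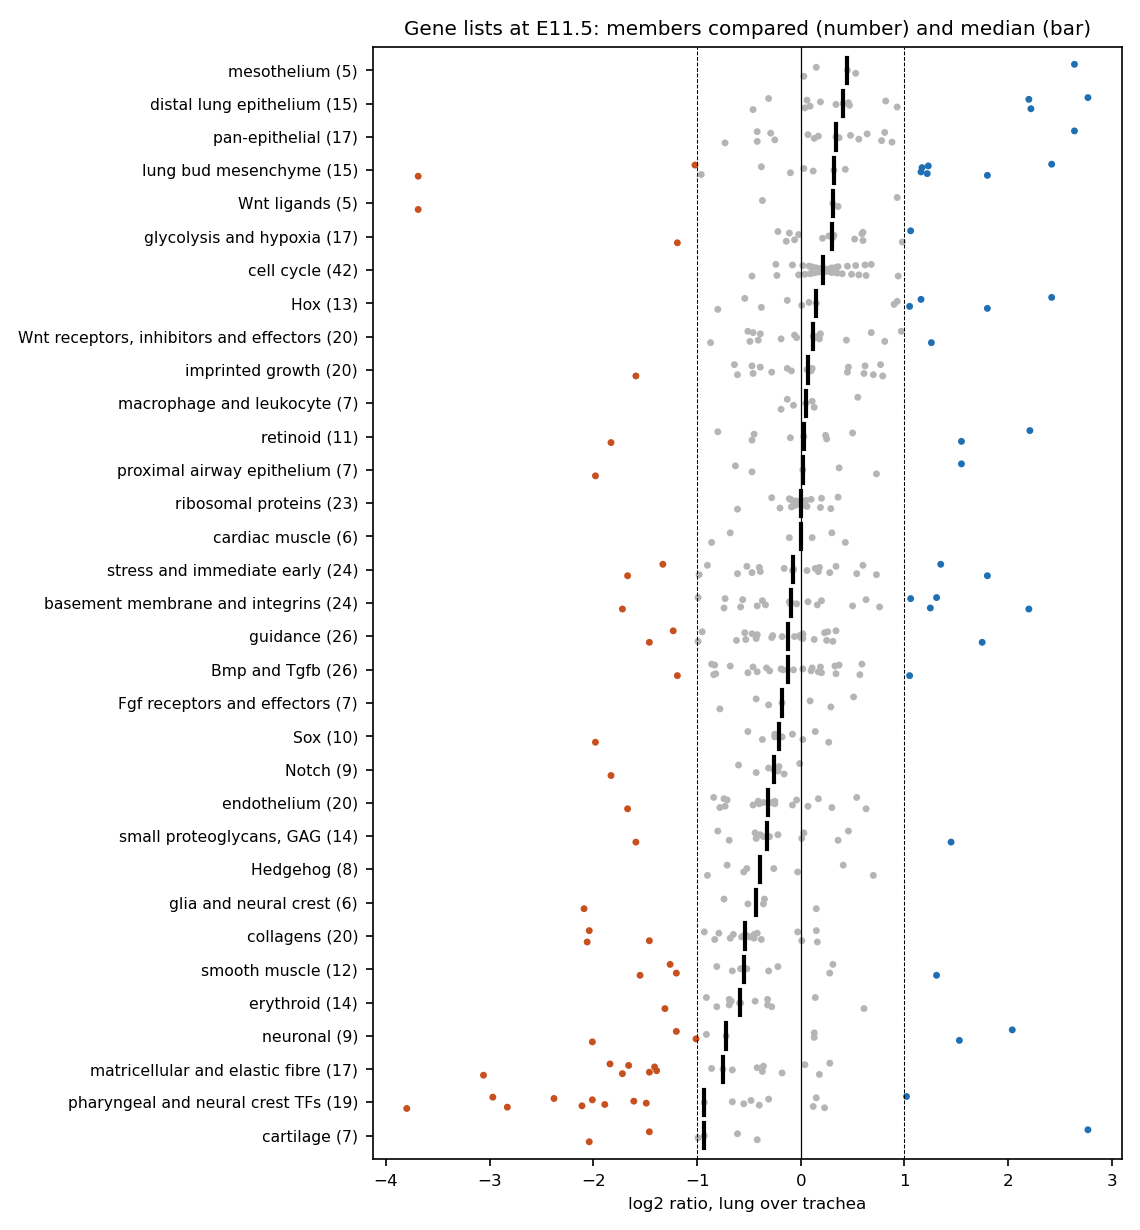
Each row is a gene list with at least 5 compared members (their number in brackets), each point a member, and each black bar the list median, with the log2 ratio of lung over trachea on the horizontal axis. Blue and orange points are over 2-fold higher in lung and trachea. Medians run from -0.93 for the pharyngeal and neural crest factors and cartilage to 0.45 for mesothelium, against -0.01 for all genes.

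Proliferation genes were slightly and broadly higher in lung. Of 42 compared cell cycle genes 37 were positive and none was over 2-fold, with a median of 0.21 (0.20 to 0.57 over the settings tried). Rrm2, the ribonucleotide reductase subunit of S phase, had the largest ratio (8714 and 4493, 0.94), followed by Tk1 (5545 and 3434, 0.68) and Birc5 (4501 and 2878, 0.63). Cdkn1c, an inhibitor of cyclin dependent kinases, was on the trachea side (19149 and 26561, -0.47). Glycolysis and hypoxia genes had a median of 0.30 over 17 compared. Hk2, a hexokinase, was over 2-fold higher in lung (4196 and 1962, 1.06), but not as the mean with a dim second probe set that pointed to trachea (10.7 and 105, -0.99; mean 0.04). The glucose transporter Slc2a3 gave 818 and 375 (0.98). Ddit4, an mTOR inhibitor induced by stress and low oxygen, was over 2-fold higher in trachea (3218 and 7434, -1.19). Ribosomal protein genes had a median of 0.00 over 23 compared.

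Imprinted growth genes split, with 11 positive and 9 negative of 20 compared. Plagl1, a zinc finger gene of the imprinted network, gave 6832 and 3916 (0.79), Grb10, an adaptor that restrains growth, 13480 and 7855 (0.77) and Dlk1 13452 and 8718 (0.62). Igf2, the fetal growth factor, was on the trachea side (42623 and 65288, -0.61). Stress and immediate early genes also split: Jun (1019 and 3421, -1.67) and Zfp36 (199 and 628, -1.33) were over 2-fold higher in trachea, and Cebpb and the heat shock gene Hspa1a (1056 and 364, 1.35) over 2-fold higher in lung. Among 24 compared members of that list 11 were positive, with a median of -0.07.

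Lists for other tissues leaned in different ways. Medians leaned to trachea for blood, endothelium, neurons and glia. They were close to even for macrophages and heart, and leaned to lung for mesothelium. Many members stayed below 543 in both tissues, and without detection calls the presence of each tissue is not shown. Blood genes were lower in lung in 12 of 14 compared, with a median of -0.59 and a summed signal of 313316 in lung and 385286 in trachea. The anion exchanger Slc4a1 of red cells gave 1321 and 3408 (-1.31), and the globin Hba-a1 gave 92284 and 111898 (-0.28). Endothelial genes were lower in lung in 15 of 20 compared (median -0.32, summed signal 35126 and 44208), a median whose sign turned on the spike scale. Vwf, a clotting protein of vessel lining, was the 1 gene over 2-fold (223 and 895, -1.67; a dim second probe set 0.48), and the defining receptor Kdr gave 1118 and 1503 (-0.40). Macrophage and leukocyte genes were even (7 compared, median 0.05, summed signal 9123 and 8587).

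Neuronal genes had a median of -0.72 over 9 of 29 measured, with a summed signal of 18415 in lung and 20983 in trachea. Isl1, Gap43 and Chga were over 2-fold higher in trachea, and Dcx and Hcrt over 2-fold higher in lung. Gap43, a growth cone protein, gave 693 and 1703 (-1.20), and Chga of secretory granules 285 and 661 (-1.01; a dim second probe set 0.30). Dcx, a microtubule protein of migrating neurons, went the other way (1970 and 626, 1.53). Phox2a, which defines autonomic neurons, stayed under the median (80.4 and 225). In the glia and neural crest list, Fabp7 was over 2-fold higher in trachea (242 and 1307, -2.09), and Sox10, which defines neural crest glia, gave 939 and 1370 (-0.51; summed signal 8663 and 12665). In the skeletal muscle list 4 of 19 measured genes were compared, 2 positive and 2 negative. Their median of -0.21 changed sign over the settings tried (-0.78 to 0.15). Myog was over 2-fold higher in trachea (221 and 613, -1.19) and Myod1 was even (671 and 654, 0.03). Members not compared lay on both sides. Mylpf (422 and 85.3, 1.58) and Chrng (330 and 121, 1.01) were higher in lung. Des (96.5 and 436, -1.52) and Acta1 (23.1 and 181, -1.31) were higher in trachea. The summed signal of the list was 5587 in lung and 6924 in trachea. Cardiac genes had a median of 0.00 over 6 compared, 3 positive and 3 negative, with a summed signal of 8313 and 9683. The largest ratios were on the trachea side, for Actc1 (1778 and 3301, -0.86) and Nppa (333 and 584, -0.68). On the lung side lay Gata4 (1458 and 1057, 0.43) and Myl7 (1292 and 1037, 0.30). The ventricular light chain Myl3 was near the dim end in both (19.2 and 16.3). Mesothelial genes were all positive (5 compared, median 0.45), with the coat protein Upk3b at 3284 and 2244 (0.53) and a summed signal of 10918 and 7818. The part of these tissues in the ratios of mesenchymal and neural crest genes was not tested.

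The remaining large trachea ratios came from genes of varied function. Pea15a, an adaptor of death receptor and kinase signalling, gave 197 in lung and 1837 in trachea (-2.77). Fap, a serine protease of reactive and embryonic fibroblasts, gave 67.4 and 834 (-2.60). Kcne1l, a potassium channel subunit, gave 92.4 and 837 (-2.38), and Rps6kb2, a kinase of ribosomal protein S6, 202 and 1215 (-2.18). Pkia, an inhibitor of protein kinase A, gave 341 and 1819 (-2.16; a second probe set -0.62). Synpo, an actin-associated protein, gave 369 and 1866 (-2.11) and the proteoglycan Spock2 161 and 934 (-2.05; a second probe set -1.61). Cldn11, a tight junction gene, gave 19.8 and 633 (-2.78), but its second probe set was slightly higher in lung (191 and 156, 0.19).

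Genes that separated lung from trachea at E11.5 were then followed in the replicated E18.5 lungs, with limma over 12625 genes and Benjamini-Hochberg adjustment. Over all genes 30 were called higher with MIA overexpression (0.238%) and 55 lower (0.436%). Nothing pairs these arrays with the E11.5 pair, and the labels do not say that the replicates came from separate litters, so that the p-values measure the spread between these samples. Of the 62 genes higher in E11.5 lung 52 were tested, and 3 were called higher (5.77%) and 1 lower (1.92%). Those called higher include Mia itself, whose call the transgene fixes, so that Aldh1a7 and Fmod are the called genes to be read against the share over all genes. At an unadjusted p under 0.05, 6 were higher and 6 lower. Of the 120 genes higher in E11.5 trachea 96 were tested and none was called by limma, with 7 higher and 10 lower at an unadjusted p under 0.05. For all compared genes on both arrays 4836 were tested, 14 called higher and 9 lower, and 193 and 221 at the unadjusted level.

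Mia itself, the gene carried by the transgene, gave 1071, 1070 and 734 in controls and 31399, 42666 and 41546 in bitransgenic lungs. The groups did not overlap (log2 difference 5.21, SE 0.18, limma adjusted p = 1.06e-06), and the call held without any single array. Aldh1a7 gave 16821, 15815 and 16418 in controls and 27515, 27543 and 28946 in bitransgenic lungs, all higher than every control (0.77, SE 0.10, limma adjusted p = 0.00904). Fmod gave 4667, 3998 and 2723 against 13034, 9570 and 7847, again with no overlap (1.40, SE 0.23, limma adjusted p = 0.0322). Since called genes tend not to overlap, that trait adds no support to the calls of Aldh1a7 and Fmod. Aldh1a7 and Fmod both lost the call without control replicate 2 or without any 1 of the 3 bitransgenic arrays (limma adjusted p up to 0.0886 for Aldh1a7 and 0.131 for Fmod). Lrp2, an endocytic receptor of epithelia that was over 2-fold higher in E11.5 lung, gave 864, 748 and 886 in controls and 188, 246 and 300 in bitransgenic lungs. It fell by 1.48 (SE 0.20, limma adjusted p = 0.0111) and lost the call without control replicate 2 (0.0649). The Actb 3′ to 5′ ratio moved with the groups, at 1.5, 1.47 and 1.28 in controls and 1.65, 1.51 and 1.61 in bitransgenic lungs. With that ratio in the fit the log2 difference was 0.76 for Aldh1a7 (limma adjusted p = 0.119), 0.92 for Fmod (0.524) and -1.38 for Lrp2 (0.272). The calls were lost, while the differences of Aldh1a7 and Lrp2 stayed close to their former size and that of Fmod was smaller.

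**Figure D5:**
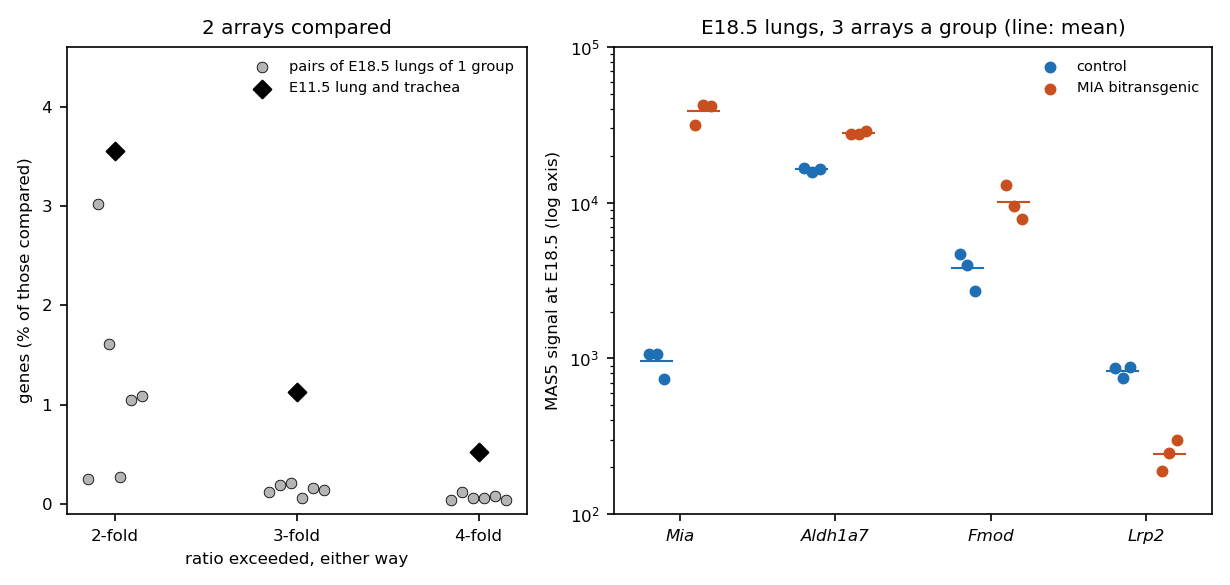
Left, the percentage of compared genes (vertical axis) over 2-fold, 3-fold and 4-fold apart for the E11.5 lung and trachea (diamonds) and for the 6 pairs of same-group E18.5 lungs (grey points). Right, E18.5 signal on a log axis for the 4 called genes, each point 1 array and each line the mean of 3. The genes were chosen by their calls, so the lack of overlap between their groups is no separate support.

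The other large E11.5 genes were not called at E18.5. Sftpc gave 81074, 84648 and 88408 in controls and 72239, 90433 and 93285 in bitransgenic lungs (difference 0.00, SE 0.11, limma adjusted p = 0.999). Sox2 gave 1139, 1163 and 790 against 1521, 1261 and 898 (0.22, SE 0.22, limma adjusted p = 0.824). Six2, the most trachea-sided gene, gave 245, 367 and 249 against 375, 206 and 140 (-0.24, SE 0.30, limma adjusted p = 0.868). In these 3 genes the groups overlapped. Hoxb6 gave 623, 407 and 525 against 758, 552 and 833 (0.40, SE 0.21, limma adjusted p = 0.624), which also overlapped. Spock2, a trachea-sided gene, came closest to the threshold of these, with 3287, 3627 and 5320 against 1533, 2130 and 1931 and no overlap (-1.07, SE 0.20, limma adjusted p = 0.0558). Tnc gave 3129, 2987 and 3887 against 2500, 2774 and 2336, without overlap but not called (-0.38, SE 0.15, limma adjusted p = 0.446). Other uncalled genes, such as Adh1 and Krt19, did not overlap either, and the share of all genes without overlap was not counted.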

How the data were processed

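RNA of E11.5 lung (1 array), E11.5 trachea (1 array) and E18.5 lung (6 arrays) was measured on Affymetrix 1-colour arrays. The deposited values are linear intensity signals made by the authors with MAS5, per the submitters' processing notes, which state no version. Each array has a 2% trimmed mean near 1500, and the arrays' number limits the precision.

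Control probe sets (66) were left out, which leaves 12422, of which 10833 had 1 gene symbol in the platform annotation, 396 several and 1193 none. The probe set with the highest mean log2 signal stood for a gene. Log2 ratios used a pseudocount of 84.3 and no test. The E18.5 fit used limma 3.58.1 (lmFit and eBayes with trend) in R 4.3.3, with genes at or above the 40th percentile of mean signal and a Benjamini-Hochberg threshold of 0.05. On simulated data with 12625 genes and 200 changed, that fit recovered 91% at 4-fold and 58% at 2-fold, with 5.7% of calls false.

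Members and lists were chosen with earlier results of these data known. Named genes were the 4 markers, the 20 largest ratios each way with a gene symbol, list members over 2-fold (or the 3 largest), Hox and Sox genes and fixed reference genes, and, at E18.5, those genes apart at E11.5 that were called. Other list members were chosen after their values were seen. Promoter windows came from RefSeq.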

Additional observations from a re-analysis of the deposited data

How the results depend on the processing

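The E11.5 counts of 62 genes higher in lung and 120 in trachea stayed within 1.5 times under median centring, quantile normalization, no pseudocount, the mean over probe sets, a filter on the mean and counting probe sets. They were 24 and 74 when 4 times the pseudocount was added, 232 and 323 with no filter, 21 and 52 with both signals above the median, 12 and 46 at 3-fold and 294 and 448 at 1.5-fold. Scaling to the spike controls, an alternative chosen after seeing the data, gave 221 and 64. Of 83 named genes over 2-fold, 22 dropped below it with the larger pseudocount, 13 with the mean over probe sets and 11 on the spike scale. Cldn11 reversed to 0.29 with no pseudocount, where another probe set stood for it. Mfap4 reversed to 1.38 without probe sets whose names end in _f_at, _r_at or _i_at (chosen after seeing the data), for the same reason.

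At E18.5 the 55 lower calls became 32 with no filter and 36 without the trend. With the Actb 3′ to 5′ ratio in the fit (chosen after seeing the data) the calls were 4 higher and 16 lower. Leaving out 1 array gave 6 to 46 higher and 16 to 51 lower. Counts moved by over 1.5 times without control replicate 2 (6 and 16), control replicate 3 (46 higher), bitransgenic replicate 1 (12 and 28), replicate 2 (13 higher) or replicate 3 (9 and 26); the cause was not tested. No paired analysis was possible because the labels number no replicates across groups and each E11.5 tissue has 1 array. With 1 array per tissue and no detection calls, ratios of dim genes are the least certain.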
